A study of Mus musculus with 21 samples.

Results

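The genes described here are 10 genes of the NRF2 pathway, the main transcriptional defence of animal cells against oxidants and reactive chemicals, measured by RNA sequencing in mouse hematopoietic stem cells (HSCs). They were chosen by symbol from the 47729 genes of the deposited count table: the regulators Nfe2l2 and Keap1 and the target genes Me1, Nqo1, Srxn1, Txnrd1, Gclc, Gclm, Hmox1 and Osgin1. Each had enough reads to be tested in both experiments of the study. HSCs were sorted from bone marrow as CD48-, CD150+ cells of the LSK (lineage-, Sca-1+, Kit+) fraction, and 21 libraries were made, 3 in each of 7 groups. The study, by its title, concerns how HSCs send misfolded proteins to aggresomes and clear them by autophagy. The treatment experiment had 12 libraries from wild-type mice (WT) or Mx1-Cre;Atg5fl/fl mice, which the titles call Atg5-/-. The mice of both genotypes were given retro-orbital bortezomib (10 mg/kg), an inhibitor of the proteasome, or 10% DMSO, its vehicle, 48 h and 24 h before analysis. The reporter experiment had 9 libraries from untreated RFP-EGFP-LC3 mice, whose HSCs were separated by colour into RFP single positive, RFP GFP double positive and double negative cells. This tandem reporter marks the autophagosome protein LC3, and loss of the green colour in acid lysosomes is used as a readout of autophagy.

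Mx1-Cre places the recombinase under the interferon-responsive Mx1 promoter, which acts in many cell types besides HSCs, and the labels do not say how or when it was induced. Atg5 is needed to attach LC3 to membranes. Its whole-gene level was 39.9 to 74.6 CPM in WT DMSO, 72.1 to 135 in WT bortezomib, 107 to 114 in the Mx1-Cre;Atg5fl/fl DMSO group and 95.2 to 142 in the Mx1-Cre;Atg5fl/fl bortezomib group, so these counts were not lower under the knockout label. A count over the whole gene does not show whether the floxed part was removed, and these groups are called knockout-labelled here. CPM are counts scaled to a library size of 1000000, after scaling of library sizes within an experiment. Nothing in the labels states that replicates came from different animals, so the tests measure the spread between these samples. The share of Xist in Xist plus Ddx3y counts, both sex-linked, differed between libraries of the same group in 6 of the 7 groups, so the libraries of those groups were not all repeats of 1 RNA sample, and the knockout-labelled DMSO libraries, which were alike in this share, give no such evidence.

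NRF2 is the transcription factor encoded by Nfe2l2. In resting cells KEAP1 binds it and presents it to a CUL3 ubiquitin ligase, and the proteasome then degrades it. When KEAP1 cysteines are modified, or when the autophagy receptor p62 (Sqstm1) accumulates and occupies KEAP1, NRF2 escapes, pairs with small MAF proteins and binds antioxidant response elements in its target genes. Because control is mostly at the level of the protein, the mRNA of Nfe2l2 is a poor guide to NRF2 activity, and the mRNA of its targets is the usual readout. In HSCs the pathway is known for roles in redox balance, quiescence and survival.

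Positions are those of GRCm38. Nfe2l2 (ENSMUSG00000015839.6) is on chromosome 2, 75675513 to 75704641, and Srxn1 (ENSMUSG00000032802.8) is on the same chromosome, 152105516 to 152111376. Keap1 (ENSMUSG00000003308.14; 21229730 to 21239361), Gclc (ENSMUSG00000032350.8; 77754535 to 77794485) and Me1 (ENSMUSG00000032418.15; 86581371 to 86695953) are on chromosome 9. Hmox1 (ENSMUSG00000005413.7; 75093621 to 75100589), Nqo1 (ENSMUSG00000003849.8; 107388225 to 107403206) and Osgin1 (ENSMUSG00000074063.9; 119434124 to 119446256) are on chromosome 8. Gclm (ENSMUSG00000028124.15) is on chromosome 3, 122245557 to 122270732, and Txnrd1 (ENSMUSG00000020250.9) is on chromosome 10, 82833951 to 82897712. All are protein-coding. The exons of Me1 and Keap1 overlap an antisense gene each (A330041J22Rik and Gm16754), and those of Gclm overlap Gm17494 and the pseudogene Gm6061, so some of their reads could belong to those genes.

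Promoter windows of 300 bases (250 before and 50 after a transcription start) came from the RefSeq table of GRCm38.p6, which held 11 windows for 8 of the 10 genes; Gclc and Hmox1 had no entry. The windows were searched on both strands for the core letters of the antioxidant response element, TGACNNNGC, and for TGACTCA, the core bound by many bZIP factors including NRF2 with its MAF partners. Where TGACTCA is followed by GC, a site matches both. TGACNNNGC occurred in 12.4% of all 32851 windows and TGACTCA in 5.2%. TGACNNNGC was found for 5 genes (Nfe2l2, Me1, Srxn1, Gclm and Txnrd1) and TGACTCA for 3 (Me1, Srxn1 and Osgin1). The stretches below are those of Me1, Srxn1 and Osgin1, whose response to bortezomib differed between the genotypes, and of Gclm and Txnrd1, whose responses edgeR did not call. Sequences read 5′ to 3′ along the strand of the gene, and capitals mark the match; TGAGTCA is TGACTCA, and GCNNNGTCA is TGACNNNGC, read on the other strand.
Me1, chr9:86695912-86695945, minus strand: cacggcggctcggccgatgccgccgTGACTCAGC
Srxn1, chr2:152105397-152105510, plus strand: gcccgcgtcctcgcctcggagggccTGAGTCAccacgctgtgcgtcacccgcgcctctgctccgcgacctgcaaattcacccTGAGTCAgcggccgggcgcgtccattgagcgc
Osgin1, chr8:119437025-119437081, plus strand: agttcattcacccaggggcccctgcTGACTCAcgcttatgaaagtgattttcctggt
Gclm, chr3:122245398-122245456, plus strand: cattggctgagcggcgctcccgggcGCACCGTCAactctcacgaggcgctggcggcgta
Txnrd1, chr10:82859089-82859147, plus strand: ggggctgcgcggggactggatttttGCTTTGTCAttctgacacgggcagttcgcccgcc

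The Me1 match fulfilled both patterns and began 6 bases before the transcription start. Srxn1 held TGACTCA in 2 places, 102 and 45 bases before the start, which 0.222% of all windows do, and a TGACNNNGC match 29 bases after it. The Osgin1 match began 97 bases before the start. The printed Osgin1 and Txnrd1 stretches lie well inside the genes as placed above, so these starts are not the outermost ones. Txnrd1 had 3 windows and Me1 had 2, and for each only the window printed held a match. Nqo1 and Keap1 had neither pattern in their windows, which says only that these letters were not within the searched bases. In the wider list of pathway genes given below, TGACTCA was found for 3 of the 34 genes with a window: Gstm5, Gstp1 and Prdx1. Their responses to bortezomib were not called as different between the genotypes. Among the genes of that list whose responses did differ, Sqstm1, Ephx1 and Txn1 had neither pattern, and Mgst1 and Blvra had TGACNNNGC only. TGACTCA was searched after the windows had been read, and a match is a description of the letters, not a site shown to be bound. A link between these letters and the responses to bortezomib was not tested.

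Library totals ran from 15005500 to 31481691 counts, and 16095 to 18899 genes were detected. All 8 HSC markers were present in every group. Their summed level was 1660 to 2050 CPM in WT bortezomib and 2390 to 3360 CPM in the other treatment groups, and Cd48, against which the cells were sorted, was 30.2 to 54.3 CPM in WT bortezomib and 3.57 to 20.1 CPM elsewhere in that experiment. The B cell genes Ms4a1 and Pax5 and the T and NK cell genes Cd3e, Cd3g, Cd8a and Ncr1 were at 0 in every group. The T and NK cell list therefore came down to Nkg7, which was at 72.1 to 77.6 CPM in WT DMSO, 136 to 199 in WT bortezomib, 76.1 to 131 in knockout-labelled DMSO and 40.9 to 111 in knockout-labelled bortezomib. The 5 B cell genes summed to 52.8 to 93.8 CPM over the treatment libraries, nearly all Cd79b. Xist, a transcript of female cells, took 31.8% to 99.2% of Xist plus Ddx3y counts in WT libraries, at most 0.987% in knockout-labelled DMSO and 100%, 0% and 3.51% in knockout-labelled bortezomib 1, 2 and 3. On the third principal component of the treatment experiment, 3 libraries were set off from the rest of their groups: WT DMSO 3, WT bortezomib 3 and, of the knockout-labelled mice, bortezomib 3.

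In knockout-labelled HSCs, bortezomib was followed by a rise of 3 of the 10 genes, and none fell. Me1 rose 6.35-fold, Srxn1 3.17-fold and Nqo1 2.68-fold. This compares with 3.63% of all 16149 genes called in that comparison, where a call is an edgeR quasi-likelihood test with a Benjamini-Hochberg adjusted p under 0.05. The log2 fold change was above 0 for 9 of the 10 genes, with a median of 0.39 against 0.00299 over all genes. The 10 genes and the wider list below were chosen with earlier results of these data known. That choice limits this and the later comparisons with all genes. Without the 3 libraries set off on the third component, 6 genes were called, the others being Osgin1, Keap1 and Nfe2l2.

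In WT HSCs, the single call among the 10 genes was a fall: Osgin1 fell by 1.84 on the log2 scale, or 3.58-fold. The background was 15.5% of all genes. The median log2 fold change of the 10 genes was -0.03, against -0.04 over all genes. At an unadjusted p under 0.05, 4 of the 10 genes passed, as did 4933 of all 16149 genes. Nqo1 and Hmox1 lay nearest to the threshold among the 9 others, with adjusted p of 0.0717 and 0.0822 by edgeR. The count was sensitive to the method, with 3 calls by DESeq2, 6 by limma voom and 2 without WT DMSO 3. Over all genes the calls under these settings were 3485, 6234 and 2762, against 2508 in the main edgeR fit.

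The response to bortezomib differed between the genotypes for 3 of the 10 genes, each with the larger value in knockout-labelled cells. The difference between the log2 responses (the interaction term) was 2.77 for Osgin1, 2.76 for Me1 and 1.33 for Srxn1. Of all genes, 9.05% were called for this term. These 3 calls held in 20 of 20 alternative analyses each, and the count rose to 5, with Keap1 and Nfe2l2, without knockout-labelled bortezomib 3.

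**Figure D1:**
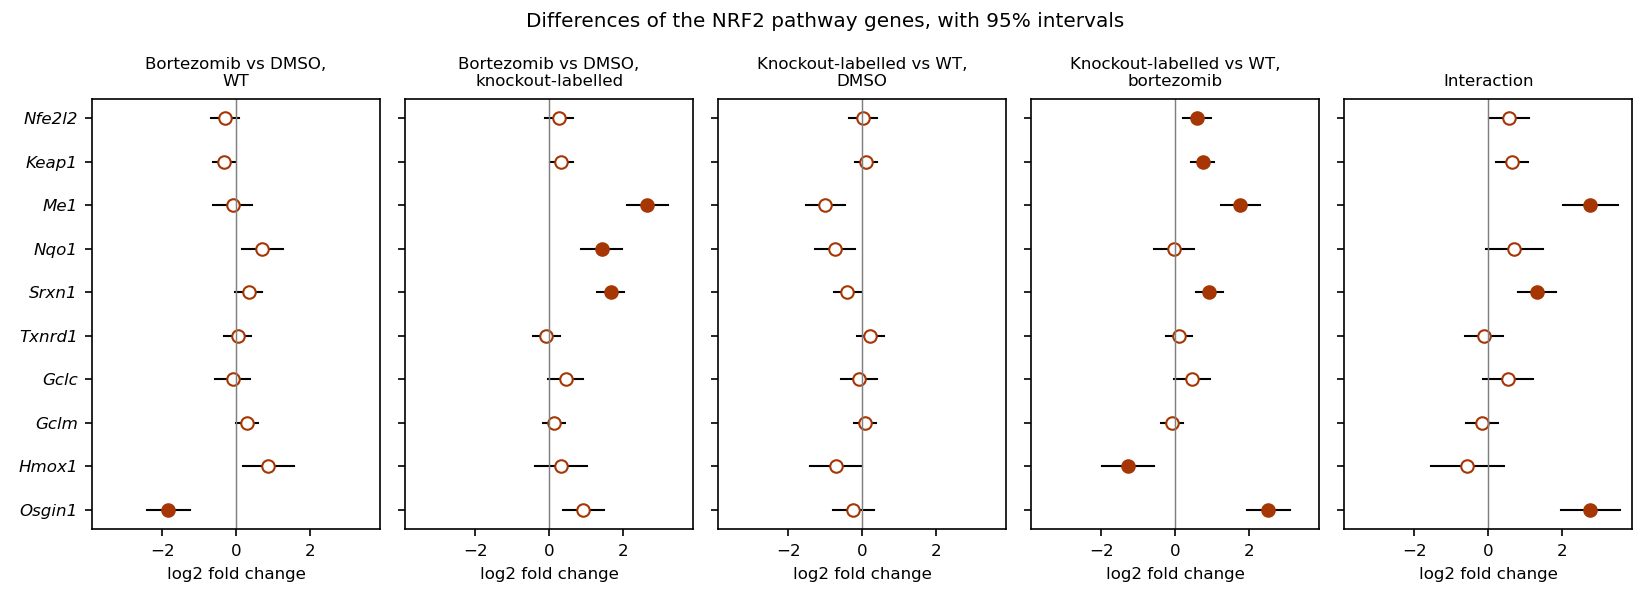
Log2 fold change (x axis) of each of the 10 genes (y axis) in the 5 comparisons of the treatment experiment, with lines for the 95% intervals and filled points for genes called by edgeR. Me1 at 2.67 and Srxn1 at 1.67 stand to the right in the knockout-labelled panel, and Osgin1 at -1.84 is the only filled point in the WT panel.

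Between genotypes under bortezomib, 6 of the 10 genes were called. Osgin1, Me1, Srxn1, Keap1 and Nfe2l2 were higher in knockout-labelled than in WT cells, and Hmox1 was lower. This comparison had the largest background of the 8, with 32.4% of all genes called. The median log2 difference of the 10 genes was 0.53, against 0.08 over all genes. Between genotypes in DMSO, edgeR called 0 of the 10 genes, against a background of 0% of all genes. There, 4 of the 10 genes had an unadjusted p under 0.05, as did 1454 of all 16149 genes. DESeq2 called 1 of the 10 (Me1) and 157 of all genes, and limma voom called 0 of the 10 and 114 of all genes. The Xist share was 60% to 99.2% in WT DMSO and at most 0.987% in knockout-labelled DMSO. Genotype and sex therefore cannot be told apart from the DMSO libraries alone, here or in the DMSO differences given below.

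Of the 2 regulators, Nfe2l2, the gene of NRF2 itself, stood at 143.1, 164 and 116 CPM in WT DMSO and 121, 121 and 101 CPM in WT bortezomib. In knockout-labelled cells it stood at 151, 134 and 146 CPM in DMSO and 179, 207 and 133 CPM in bortezomib. The libraries of each bortezomib group overlapped those of the DMSO group of the same genotype, and neither response was called (WT -0.30, 95% interval -0.69 to 0.08; knockout-labelled 0.27, interval -0.12 to 0.65). Under bortezomib every knockout-labelled library was above every WT library, and the log2 difference was 0.60 (SE 0.182, edgeR adjusted p = 0.0201). That call was lost without WT bortezomib 3 (0.51, edgeR adjusted p = 0.0803), knockout-labelled bortezomib 1 (0.57, adjusted p = 0.0601) or knockout-labelled bortezomib 2 (0.45, adjusted p = 0.104). The order of the 4 group means was knockout-labelled bortezomib, knockout-labelled DMSO, WT DMSO and WT bortezomib, with overlap between each group and the next.

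Keap1, the sensor that retains NRF2, was at 119.5, 120.3 and 105 CPM in WT DMSO and at 84.0, 93.6 and 99.8 CPM in WT bortezomib. The knockout-labelled libraries held 128, 121 and 121 CPM in DMSO and 166, 161 and 138 CPM in bortezomib. All WT bortezomib libraries were the lowest of the 12 and all knockout-labelled bortezomib libraries the highest, with both DMSO groups between them and nearly touching. Between genotypes under bortezomib the log2 difference was 0.75 (SE 0.145, edgeR adjusted p = 0.00129), a call that held in 15 of 15 alternatives. Neither bortezomib response passed the test on its own (WT -0.31, adjusted p = 0.152; knockout-labelled 0.33, adjusted p = 0.246), and their difference was 0.65 (edgeR adjusted p = 0.0576). That difference passed in 5 of 20 alternatives, among them those without WT DMSO 3 (adjusted p = 0.0466) and without knockout-labelled bortezomib 3 (adjusted p = 0.0229).

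Me1 encodes the cytosolic malic enzyme, which makes NADPH, the reductant that the glutathione and thioredoxin systems consume. Its level was 13.5, 11.4 and 16.8 CPM in WT DMSO and 11.9, 10.5 and 16.8 CPM in WT bortezomib. It was 7.28, 8.19 and 5.45 CPM in knockout-labelled DMSO and 45.9, 44.7 and 42.5 CPM in knockout-labelled bortezomib. The last 3 values were the highest of the 12, more than any other library by a wide margin, and the knockout-labelled DMSO libraries were the lowest. The log2 response in knockout-labelled cells was 2.67 (SE 0.259, edgeR adjusted p = 0.000105) and held in 15 of 15 alternatives, between 2.52 and 2.79.

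In WT cells the log2 response of Me1 was -0.09 with a 95% interval from -0.61 to 0.42, so a rise of the size seen in knockout-labelled cells lay outside it. The difference between the responses was 2.76 (SE 0.351, edgeR adjusted p = 0.0028). Under bortezomib the knockout-labelled group was 3.40-fold above WT (log2 1.77, SE 0.249, adjusted p = 0.000212). In DMSO the knockout-labelled group was below WT without overlap, with a log2 difference of -0.99 (interval -1.52 to -0.47, edgeR adjusted p = 0.217). DESeq2 called that difference (adjusted p = 0.016). The 7 erythroid markers together were at 33.7 to 67.0 CPM in knockout-labelled bortezomib and 34.3 to 45.6 CPM in knockout-labelled DMSO, groups that overlapped. Rhag, an erythroid gene outside that list, averaged 27.4 CPM in knockout-labelled bortezomib and 5.12 CPM in knockout-labelled DMSO. Rhag was picked for its similarity of pattern to Me1 over these same libraries, so its parallel with Me1 follows from that choice. The part of erythroid cells in the Me1 result was not tested. The response of Me1 in knockout-labelled cells was also called by edgeR with the Xist share as a covariate. As in any bulk sample, more cells that express a gene and more RNA per cell cannot be told apart.

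**Figure D2:**
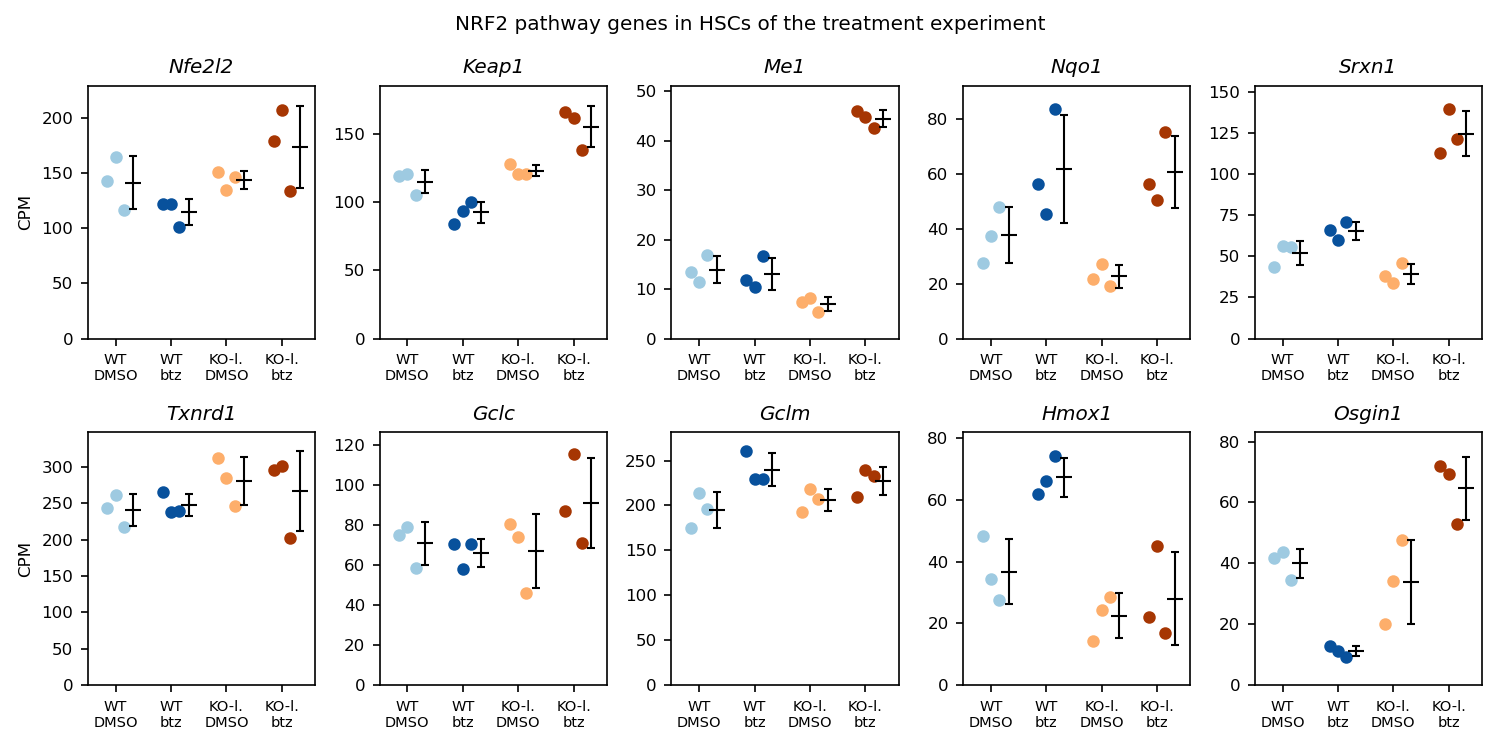
Level in CPM (y axis, from 0) of each of the 10 genes in the 12 treatment libraries (points, by group: WT or knockout-labelled, written KO-l., with DMSO or bortezomib, written btz), with the group mean and SD (bars, n = 3). Me1 sits at 42.5 to 45.9 CPM in knockout-labelled bortezomib and at or below 16.8 CPM in the other groups, and Osgin1 is lowest in WT bortezomib.

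Nqo1 encodes a quinone reductase that is a standard marker of NRF2 activity. Its values were 27.6, 37.3 and 48.0 CPM in WT DMSO and 56.3, 45.5 and 83.7 CPM in WT bortezomib. In knockout-labelled cells they were 21.8, 27.1 and 19.1 CPM in DMSO and 56.3, 50.5 and 75.4 CPM in bortezomib. Both bortezomib groups reached the same range, while the WT bortezomib libraries overlapped the WT DMSO libraries and the knockout-labelled groups were apart. The log2 response was 1.42 in knockout-labelled cells (SE 0.263, edgeR adjusted p = 0.00665), called in 15 of 15 alternatives. In WT it was 0.71 (95% interval 0.17 to 1.26, edgeR adjusted p = 0.0717), called in 7 of 15 alternatives, among them the analyses without WT DMSO 3 (adjusted p = 0.0338) and by DESeq2 (adjusted p = 0.0392). The difference between the responses was not called (0.71, interval -0.07 to 1.48, edgeR adjusted p = 0.236). Under bortezomib the genotypes differed by -0.03 (interval -0.57 to 0.52). In DMSO the log2 difference was -0.73 (interval -1.29 to -0.18, edgeR adjusted p = 0.409), with the knockout-labelled libraries all below those of WT.

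Srxn1 encodes sulfiredoxin, which repairs overoxidised peroxiredoxins. It was at 43.3, 56.4 and 55.7 CPM in WT DMSO and 66.0, 59.8 and 70.7 CPM in WT bortezomib. It was at 38.04, 34.1 and 45.9 CPM in knockout-labelled DMSO and 113, 139.6 and 121.5 CPM in knockout-labelled bortezomib. The libraries of both bortezomib groups lay above those of both DMSO groups, and the knockout-labelled bortezomib libraries above all others. The log2 response was 1.67 in knockout-labelled cells (SE 0.178, edgeR adjusted p = 0.000155) and 0.34 in WT (95% interval -0.03 to 0.71, adjusted p = 0.201). Their difference was 1.33 (SE 0.246, edgeR adjusted p = 0.00866). Under bortezomib the knockout-labelled group was 1.90-fold above WT (log2 0.93, SE 0.174, edgeR adjusted p = 0.00104), and in DMSO the log2 difference was -0.40 (interval -0.77 to -0.03, adjusted p = 0.51).

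Txnrd1, the thioredoxin reductase of the cytosol, had its lowest treatment group mean, 240.5 CPM, in WT DMSO and its highest, 281 CPM, in knockout-labelled DMSO. Its libraries overlapped in every comparison, and no log2 difference between 2 treatment groups exceeded 0.23 in size (widest interval reach, 0.59). The 2 subunits of glutamate-cysteine ligase, which starts glutathione synthesis, were not called by edgeR in any comparison. The catalytic subunit Gclc had log2 responses of -0.10 in WT (interval -0.57 to 0.38) and 0.45 in knockout-labelled cells (interval -0.03 to 0.93). Gclc libraries of knockout-labelled bortezomib (86.8, 115 and 71.1 CPM) were all above those of WT bortezomib (70.2, 58.0 and 70.1 CPM), with a log2 difference of 0.46 (interval -0.02 to 0.94, edgeR adjusted p = 0.133). That Gclc difference was called by limma voom (adjusted p = 0.0298) and by edgeR without the 3 libraries set off on the third component (adjusted p = 0.042). The modifier subunit Gclm had responses of 0.30 in WT (interval -0.0037 to 0.60) and 0.14 in knockout-labelled cells (interval -0.16 to 0.44), and WT bortezomib libraries (261, 229 and 229 CPM) were all above WT DMSO libraries (174, 214 and 196 CPM). The WT response of Gclm was called by limma voom (adjusted p = 0.0409) and by edgeR with length and GC offsets (adjusted p = 0.0385).

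Hmox1 encodes heme oxygenase, which opens the heme ring to biliverdin, iron and carbon monoxide, and it responds to heme and stress through several factors besides NRF2. It was at 48.1, 34.5 and 27.4 CPM in WT DMSO and 61.9, 66.0 and 74.2 CPM in WT bortezomib. It was at 14.3, 24.4 and 28.6 CPM in knockout-labelled DMSO and 21.9, 45.1 and 16.9 CPM in knockout-labelled bortezomib. The WT bortezomib libraries were the highest of the 12, and the knockout-labelled groups overlapped each other. Under bortezomib the knockout-labelled group was 2.41-fold lower than WT (log2 difference -1.27, SE 0.333, edgeR adjusted p = 0.00873), a call that held in 15 of 15 alternatives. It was the single one of the 6 called genes that went in this direction. EdgeR called neither response (WT 0.88, interval 0.18 to 1.58, edgeR adjusted p = 0.0822; knockout-labelled 0.32, interval -0.39 to 1.02, adjusted p = 0.721). The WT response of Hmox1 was called in 4 of 15 alternatives: by DESeq2 (adjusted p = 0.0422), by limma voom (0.00398), and by edgeR without a filter on low counts (0.00434) or with only the libraries compared (0.0182).

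Hmox1 is also strongly expressed by macrophages. The 8 monocyte and macrophage markers, all detected in every group, summed to 624 to 894 CPM in WT bortezomib and 302 to 660 CPM in knockout-labelled bortezomib, mostly Lyz2. Vcam1, a gene of marrow macrophages, was at 31.5, 28.3 and 68.9 CPM in WT bortezomib 1, 2 and 3 and at 19.4, 25.4 and 11.2 CPM in knockout-labelled bortezomib, and C1qb was at 17.0, 16.7 and 35.4 against 8.55, 10.5 and 6.18 CPM. Both genes, which are only part of the 8 markers, were higher in WT bortezomib, while the sum of the 8 markers overlapped between the bortezomib groups. In DMSO the 8 markers summed to 689 to 943 CPM in WT and 487 to 607 CPM in knockout-labelled cells. The WT groups thus overlapped in this sum, though not in Hmox1. Csf1r, Adgre1, C1qa and Mrc1 are not given singly here. Cd68 overlapped between the groups, at 46.0 to 62.7 and 49.0 to 64.0 CPM. The part of these cells in the Hmox1 result was not tested.

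Osgin1, which encodes an oxidative stress induced growth inhibitor, stood at 41.8, 43.7 and 34.6 CPM in WT DMSO and 12.9, 11.3 and 9.34 CPM in WT bortezomib. In knockout-labelled cells it stood at 20.2, 34.1 and 47.7 CPM in DMSO and 71.8, 69.4 and 52.8 CPM in bortezomib. All WT bortezomib libraries were below every other library, and all knockout-labelled bortezomib libraries were above. The fall in WT was -1.84 on the log2 scale (SE 0.271, edgeR adjusted p = 0.00235), between -1.96 and -1.72 over the 15 alternatives, all of which called it. The response in knockout-labelled cells was 0.93 (95% interval 0.38 to 1.49, edgeR adjusted p = 0.0621). It was not called, but it was in 7 of 15 alternatives, including those without knockout-labelled DMSO 3 (1.25, adjusted p = 0.0223) and without knockout-labelled bortezomib 3 (1.07, adjusted p = 0.0308).

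The difference between the 2 Osgin1 responses was 2.77 (SE 0.376, edgeR adjusted p = 0.0028), as large as that of Me1 but composed differently, since Me1 did not differ detectably between treatments in WT. Under bortezomib Osgin1 was 5.78-fold higher in knockout-labelled than in WT cells (log2 2.53, SE 0.277, edgeR adjusted p = 7.94e-05), the smallest p of the 10 genes in that comparison. In DMSO the groups overlapped (log2 -0.24, interval -0.79 to 0.31). WT bortezomib was also the group with the lowest summed HSC markers and the highest Cd48 given above, and the part of that in the Osgin1 result was not tested.

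**Figure D3:**
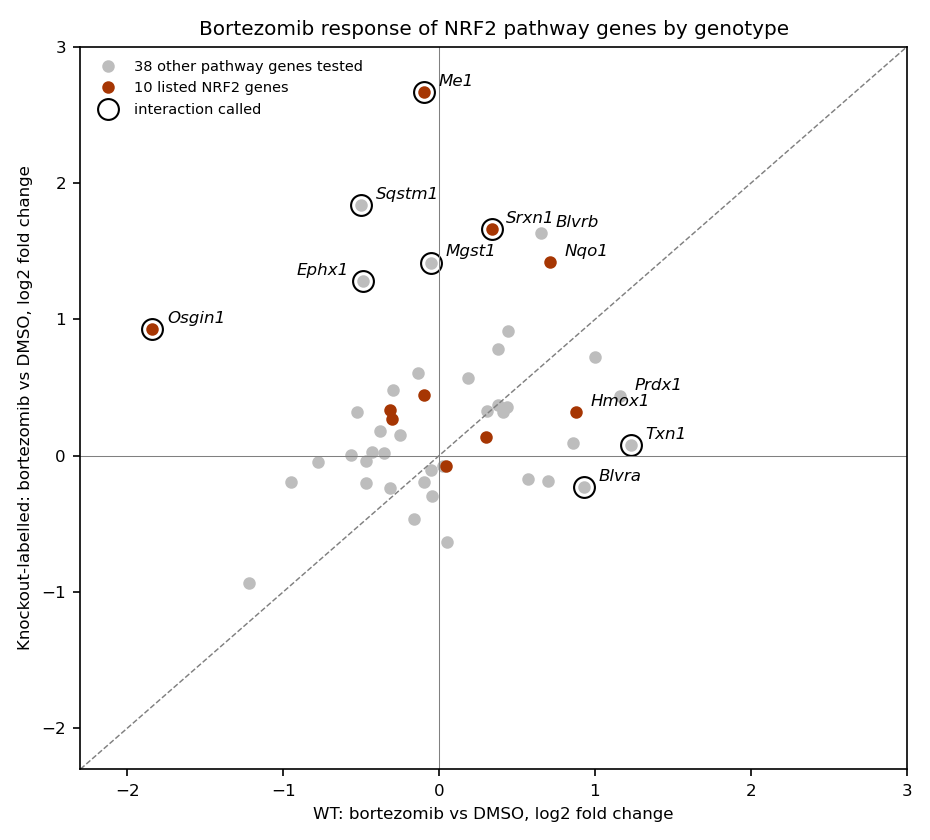
Log2 response to bortezomib in WT (x axis) and in knockout-labelled HSCs (y axis) for the 10 genes and 38 other tested pathway genes; the dashed line marks equal responses and rings mark genes whose responses differed by the edgeR interaction term. Me1 lies near 0 on the x axis at 2.67 on the y axis, and Osgin1 lies at -1.84 and 0.93.

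Levels of different genes were compared per kilobase of exon, as mean CPM per kb. In WT DMSO the order ran from Nfe2l2 (37.2), Txnrd1 (33.9) and Gclm (30.97) down to Osgin1 (14.98) and Me1 (3.61). Srxn1 was 8th of the 10 in WT DMSO at 18.4 CPM per kb and 2nd in knockout-labelled bortezomib at 44.2, just below Nfe2l2 at 45.6. Hmox1 was 6th in WT DMSO at 20.9, 2nd in WT bortezomib at 38.5 and 9th in knockout-labelled bortezomib at 16.0. Me1 was the lowest of the 10 in all 7 groups, including knockout-labelled bortezomib, where it reached 11.5 CPM per kb.

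Across the 12 treatment libraries the 10 genes did not move as 1 block. Of 45 pairs, 6 had a Pearson correlation of log2 CPM over 0.7, and these fell into 2 sets joined by no such pair. Me1, Srxn1 and Nqo1 formed one (Me1 with Srxn1 0.91, Srxn1 with Nqo1 0.75, Me1 with Nqo1 0.73). Nfe2l2, Keap1 and Osgin1 formed the other (Keap1 with Osgin1 0.84, Nfe2l2 with Keap1 0.82, Nfe2l2 with Osgin1 0.77). Osgin1, listed as a target, was thus closer to the regulators than to the other targets, with 0.45 to Me1 and -0.19 to Nqo1. The 12 points share their group structure and their scaling, so these values describe the libraries and carry no test.

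For Me1, Srxn1, Nqo1 and Osgin1 the 3 genes of most similar pattern were taken by Pearson correlation of log2 CPM over the 12 libraries, among 10046 genes with a mean of at least 5 CPM. For Me1 they were Ift52 (0.932), Rhag (0.931) and Acadl (0.93), of which Rhag is the erythroid membrane gene given above. For Srxn1 they were Eci2 (0.967), Bvht (0.957) and Mocos (0.956), and Mocos averaged 42.3 CPM in knockout-labelled bortezomib and 4.85 CPM in knockout-labelled DMSO. For Nqo1 they were Mdp1 (0.942), Id2 (0.936) and Blvrb (0.929). For Osgin1 they were Phf1 (0.961), Rdh12 (0.954) and Slc46a3 (0.953), with Phf1 at 7.64 CPM in WT bortezomib and 40.0 CPM in knockout-labelled bortezomib.

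A wider list of 39 other pathway genes (regulators, glutathione, thioredoxin, NADPH supply, heme and iron, detoxification) placed the 10 genes among their neighbours; 38 were tested and Nfe2l3 was too low. In knockout-labelled cells bortezomib was followed by a rise of 6 and a fall of 1 (18.4% called, against the 3.63% of all genes). Sqstm1, which encodes the receptor p62, rose from 318, 283 and 390.1 CPM to 1179, 1604 and 759 CPM, with no overlap (log2 1.84, SE 0.248, edgeR adjusted p = 0.000861). Blvrb, a biliverdin reductase, rose by 1.63, the microsomal glutathione transferase Mgst1 by 1.42, the epoxide hydrolase Ephx1 by 1.28 and glutathione reductase Gsr by 0.92, while the pentose phosphate enzyme Tkt fell by 0.64 on the log2 scale. Of these 7 calls, 2 were left without knockout-labelled DMSO 1 or 2, 3 without knockout-labelled bortezomib 2, and 4 without knockout-labelled DMSO 3 or knockout-labelled bortezomib 1. The calls of Blvrb and Sqstm1 held in 15 of 15 alternatives.

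In WT cells 5 of the 38 rose and 3 fell (21.1%, against 15.5% of all genes). Thioredoxin Txn1 rose from 511, 559 and 864 to 1706, 1566 and 1264 CPM without overlap (log2 1.23, SE 0.232, edgeR adjusted p = 0.00485). The peroxiredoxin gene Prdx1 rose by 1.16, the biliverdin reductase gene Blvra by 0.93 and Rbx1, a subunit of the KEAP1 ligase, by 0.86, while the glutathione transferase gene Gstm1 fell by 0.95 and catalase, Cat, fell by 0.77 on the log2 scale. Txn1, Prdx1 and Gstm1 have close copies or pseudogenes that can share their reads, so their values are uncertain. The count of 8 dropped to 3 without WT DMSO 1 or 2 and to 2 without WT bortezomib 1; Txn1 was called in all 15 alternatives.

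Between genotypes under bortezomib 13 of the 38 were higher and 7 lower in knockout-labelled cells (52.6%, against 32.4% of all genes). Sqstm1 was higher by 2.37, Mgst1 by 1.73 and Cat by 0.89, and Blvra at -1.50, Txn1 at -1.33 and Rbx1 at -1.02 were lower on the log2 scale. Of the 11 regulators tested, 6 were higher and 2 lower. In DMSO edgeR, DESeq2 and limma voom each called 0 of the 38. An unadjusted p under 0.05 by edgeR was reached by 4 of them and by 1454 of all 16149 genes. The response differed between genotypes for 5 (13.2%, against 9.05% of all genes): Sqstm1 (2.34), Ephx1 (1.77) and Mgst1 (1.47) responded more in knockout-labelled cells, and Blvra (-1.16) and Txn1 (-1.15) more in WT. Of these 5, Sqstm1 was called in 20 of 20 alternatives and the others in 11 to 14. The count was 1 without WT DMSO 2, WT bortezomib 1 or 2, or knockout-labelled DMSO 1 or 2. It was 3 without knockout-labelled bortezomib 1, 2 without knockout-labelled bortezomib 2, 8 without WT bortezomib 3 and 12 without knockout-labelled bortezomib 3. Sqstm1 overlaps Mrnip on the opposite strand, and its reads cannot be told apart from those of Mrnip without the strand setting of the counting.

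In the reporter experiment edgeR called 0 of the 10 genes between RFP single positive and double positive cells, 0 of 10 between RFP single positive and double negative cells and 0 of 10 between double positive and double negative cells. The background was 0%, 0% and 0.0065% of the 15375 genes tested. In each comparison 0 of the 10 genes had an unadjusted p under 0.05, and DESeq2 and limma voom called 0. Leaving out each library in turn gave 0 as well.

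The fractions overlapped for every gene but 2: Keap1 in RFP single positive and Nfe2l2 in double positive libraries lay just above the double negative libraries. Of the 38 other pathway genes, 4 lay without overlap between RFP single positive and double positive cells. Against double negative cells, 6 did so for RFP single positive and 6 for double positive cells. The share of all genes without overlap is not given here. EdgeR called neither Keap1 nor Nfe2l2, and no conclusion is drawn from their separation. Txnrd1 and Nfe2l2 had the narrowest intervals, with Nfe2l2 at 85.6, 122.8 and 107.7 CPM in RFP single positive, 103, 110.8 and 104.6 CPM in double positive and 93.9, 100.8 and 98.7 CPM in double negative cells. The log2 difference of Nfe2l2 between double positive and double negative cells was 0.12 (95% interval -0.28 to 0.52). Me1 had the widest, and double positive 2 held 0.773 CPM where the other 8 libraries held 6.26 to 12.8 CPM. Its log2 difference between RFP single positive and double positive cells was 0.45 (interval -0.94 to 1.85), so these libraries do not exclude a difference of either sign within that range. Nqo1 was at 53.4, 36.6 and 36.0 CPM in RFP single positive and 72.4, 66.2 and 38.6 CPM in double negative cells (log2 -0.49, interval -1.09 to 0.11). Srxn1 was at 60.4, 60.5 and 43.7 CPM and 71.9, 69.6 and 38.2 CPM in the same groups (log2 -0.13, interval -0.74 to 0.49).

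**Figure D4:**
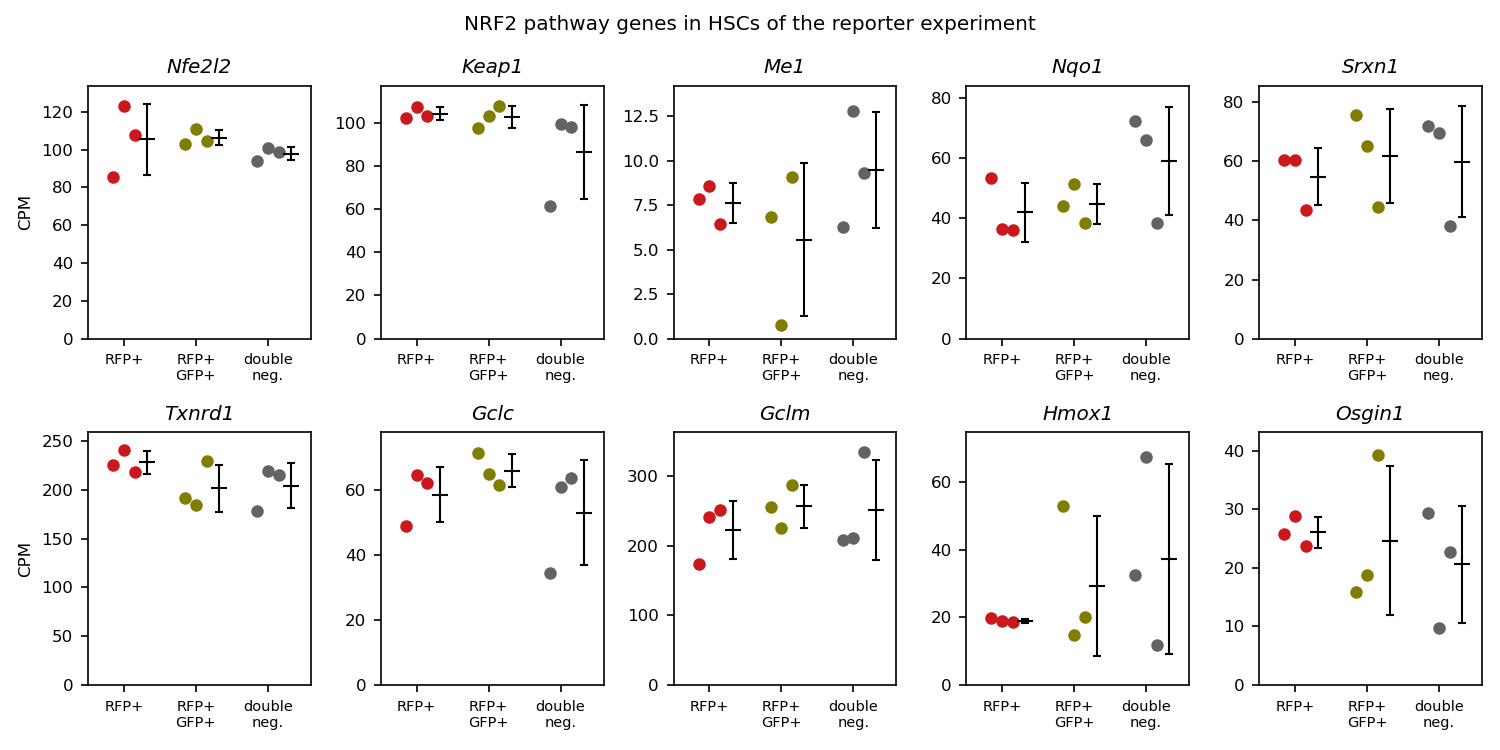
Level in CPM (y axis, from 0) of each of the 10 genes in the 9 reporter libraries (points, by sorted fraction), with the group mean and SD (bars, n = 3). The fractions overlap for most genes, and the low Me1 point is double positive 2 at 0.773 CPM.

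Hmox1 and Osgin1 also varied between libraries of the same fraction. Hmox1 was at 19.8, 18.8 and 18.6 CPM in RFP single positive, 53.1, 14.7 and 20.1 CPM in double positive and 32.6, 67.6 and 11.9 CPM in double negative cells. Vcam1 was at 50.1 CPM in double negative 2, at 39.6 CPM in double positive 1 and at 8.45 to 27.7 CPM in the other libraries. Vcam1 belongs to the list of 8 monocyte and macrophage markers, and the other markers are not given singly for these libraries. The list summed to 568 to 715 CPM in RFP single positive, 653 to 852 in double positive and 695 to 977 in double negative cells, with overlap. The part of such cells in the spread of Hmox1 was not tested. Osgin1 was at 25.7, 28.8 and 23.7 CPM in RFP single positive, 15.9, 18.9 and 39.2 CPM in double positive and 29.5, 9.72 and 22.7 CPM in double negative cells. None of the 38 other pathway genes tested was called by edgeR in the 3 comparisons, with 0, 3 and 2 at an unadjusted p under 0.05. Over all 15375 genes the unadjusted counts were 209, 1160 and 1315. DESeq2 called 1 of the 38 between double positive and double negative cells, and limma voom called 0.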

How the data were processed

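RNA from sorted HSCs was measured in 21 libraries, prepared with the RNeasy Plus Micro kit and SMART-seq2, per the labels' protocols. The values are raw counts per gene that the authors deposited; the submitters' processing notes name Bowtie 1.0.0, STAR 2.6.1, HTSeq 0.7.1 and the builds GRCm38.p4 and GRCh38. Annotation release and strand setting: not given in the sources used here. 0 columns had no sample, and no libraries within a group were duplicates.

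Each experiment had a single edgeR 4.0.16 quasi-likelihood fit in R 4.3.3 with a mean per group, after filterByExpr (16149 and 15375 genes kept) and TMM scaling. P-values were Benjamini-Hochberg adjusted over all genes of a comparison and called under 0.05. The SE was the log2 fold change divided by the square root of F, and the 95% interval used the same degrees of freedom. A floor of 3 counts lay between 0.0953 and 0.2 CPM. The experiments were not compared with each other. Figures used Python 3.11 and matplotlib 3.10.9. The procedure was tested on simulated data.

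The alternatives were relative log expression size factors, DESeq2 1.42.0, limma 3.58.1 voom with quality weights, no filter on low counts, the replicate number as a block, only the libraries compared, and each library left out. Chosen after seeing the data were transcript length and GC offsets, the Xist share as a covariate, and omission of the 3 libraries set off on the third component.

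The genes and lists were chosen with earlier results of these data known. All 10 genes are named in every comparison. Of the wider list, at most 6 called genes of smallest p per treatment comparison are named, and for 4 of the 10 genes the 3 genes of most similar pattern. GENCODE M21 gave positions and exon lengths, and RefSeq gave the promoter windows.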

Additional observations from a re-analysis of the deposited data

Results flagged for a closer look

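The bortezomib response of 8 pathway genes differed between knockout-labelled and WT cells by the edgeR interaction term. As knockout-labelled minus WT on the log2 scale, the difference was 2.769 for Osgin1, 2.762 for Me1 and 1.327 for Srxn1 among the 10 genes. Among the other pathway genes it was 2.336 for Sqstm1, 1.769 for Ephx1, 1.468 for Mgst1, -1.164 for Blvra and -1.152 for Txn1. Me1 and Srxn1 were higher with bortezomib in 3 of 3 knockout-labelled libraries than in any DMSO library, and Osgin1 was lower with bortezomib in 3 of 3 WT libraries than in any other library.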

How the results depend on the processing

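No result for the 10 genes that was called changed its sign under any alternative. Of 1220 gene values under an alternative, 1117 kept their direction and their side of the threshold, 65 changed sign while not called, 35 gained a call and 3 lost one, those of Nfe2l2 given above. For bortezomib in WT the count of called genes among the 10 was 1, but 3 without a filter, by DESeq2 or with length and GC offsets, 6 by limma voom, 2 with only the libraries compared or without the 3 libraries set off on the third component, and 1 to 2 when each library was left out. For bortezomib in knockout-labelled cells it was 3, but 6 without those 3 libraries, and 3 to 4 when each library was left out. Between genotypes in DMSO it was 0, but 1 by DESeq2. For the interaction it was 3, but 5 by limma voom or without the 3 libraries, and 3 to 5 when each library was left out. The counts of 6 (genotype under bortezomib) and 0 (reporter) stayed within 5 to 7 and at 0.

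The replicate numbers did not meet the criterion for pairing, a correlation over 0.1 in every same-numbered pair. In the treatment experiment the deviations of same-numbered libraries correlated at -0.028 to 0.2 (median 0.0375) and those of differently numbered ones at -0.172 to 0.1 (median -0.023). In the reporter experiment they correlated at -0.014 to 0.165 (median 0.093) and -0.161 to 0.102 (median -0.034), and the Xist share followed the number there (88.1% to 99.9% in replicate 2 of each fraction, 0% to 10.2% elsewhere). With the replicate block, bortezomib in WT gave 2 called genes, adding Nqo1 (adjusted p = 0.0447), and the interaction for the wider list gave 8 against 5. The block changed no other call among the 10 genes.

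For the wider list, bortezomib in WT gave 8 but 23 by limma voom and 16 without the 3 libraries. Bortezomib in knockout-labelled cells gave 7 but 11 without those libraries. The interaction gave 5 but 8 by DESeq2, 21 by limma voom, 9 with length and GC offsets, 1 with the Xist share and 18 without the 3 libraries. Over all genes, bortezomib in WT gave 2508 but 6234 by limma voom, 1629 with the Xist share, 3961 without the 3 libraries and 588 to 2762 with each library left out. Bortezomib in knockout-labelled cells gave 586 but 1238 by DESeq2, 1577 by limma voom, 1085 without a filter, 318 with only the libraries compared, 1902 without the 3 libraries and 182 to 1040 with each library left out. The interaction gave 1462 but 2443, 4862, 2319 and 4015 under DESeq2, limma voom, no filter and without the 3 libraries, 276 with the Xist share and 352 to 2820 with each library left out. Genotype in DMSO gave 0 but 157 by DESeq2, 114 by limma voom, 189 without a filter, 23 with the block or only the libraries compared, 12 with length and GC offsets, 40 without the 3 libraries and 2 with the Xist share. The reporter comparisons gave at most 1 but up to 47 by DESeq2 and 8 without a filter. Where a library was left out, fewer samples entered the fit; other causes were not tested. The number of libraries limits the precision, as the intervals show.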
